A study of Homo sapiens with 2 samples.

Results

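Cholesterol synthesis and sterol regulation genes were examined in HCC1954 cells, an established HER2-positive breast cancer cell line. The set held 37 genes, chosen by name as enzymes of cholesterol and fatty acid synthesis and as regulators or carriers of sterols, out of 62699 gene IDs with counts. All 37 were found in the table and all reached 1 CPM (a count scaled to library size) in the ASO-1235 library, the ASO-NC library or both. RNA sequencing of polyadenylated RNA gave 2 libraries, 1 from cells labelled ASO-1235 and 1 from cells labelled ASO-NC, both without a stated dose or time. ASO is the usual abbreviation of antisense oligonucleotide, although the labels do not spell it out. The sample titles read Si1235 for ASO-1235 and NC1235 for ASO-NC, so the labels do not settle the kind of reagent. The study asks what the long non-coding RNA LINC01235 does to transcription in these cells. With 1 library of 1 cell line behind each label, nothing can be set against the spread between replicates and no p-value is printed: each comparison is of these libraries, not of the conditions.

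The ASO-1235 library held 37916307 counts and the ASO-NC library 48092494. LINC01235 had 0 counts in the ASO-1235 library and 1337 counts (28.6 CPM) in the ASO-NC library. Both mates of a read pair seem to have been counted, so a count of 0 allows up to 3 pairs, which is 6 counts in this library, and LINC01235 was at least 186-fold lower there. The 8 epithelial and HER2 markers (ERBB2, GRB7, EPCAM, KRT7, KRT8, KRT18, KRT19 and CDH1) summed to 9655 CPM in the ASO-1235 library and 10218 CPM in the ASO-NC library. Of 7 immune markers 1 reached 1 CPM, of 6 fibroblast markers 1, of 5 endothelial markers 1 and of 6 adipocyte markers 2, at summed levels of 2.15, 40.8, 7.45 and 6.48 CPM in the ASO-1235 library and of 2.63, 45.1, 8.07 and 8.33 CPM in the ASO-NC library. CD3D and PDGFRB had 0 counts in both libraries. LYZ, the immune marker at 1 CPM, had 44 counts in the ASO-1235 library and 98 in the ASO-NC library (0.537, 0.309 to 0.905). The adipocyte markers at 1 CPM were the lipid droplet genes PLIN1, with 132 counts in the ASO-1235 library and 235 in the ASO-NC library, and PLIN4, with 105 in the ASO-1235 library and 152 in the ASO-NC library. The part of such transcripts in the results was not tested.

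Cells make cholesterol from acetyl-CoA in 3 stretches: the mevalonate pathway, which builds isoprenoid units, the joining and closing of these units into a first sterol, and a series of trimming and isomerising steps on the sterol ring. SREBP-2, encoded by SREBF2, activates most genes of this route when membrane sterol is low, and SREBP-1, encoded by SREBF1, is better known for fatty acid synthesis. SCAP escorts both factors from the endoplasmic reticulum to the Golgi for cleavage, and the INSIG proteins hold SCAP back when sterol is plentiful. Lipid synthesis enzymes such as fatty acid synthase are abundant in many HER2-positive breast cancers.

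Ratios are ASO-1235 over ASO-NC. Each carries a 95% interval that is exact for the deposited counts multiplied by 0.5 and covers counting error only. The factor of 0.5 stands for the 2 mates of a pair: of the counts from 1 to 1000, 64.0% were even in the ASO-1235 library and 67.5% in the ASO-NC library. Copies made by PCR were not told apart from separate molecules, so these intervals remain a lower limit on the error. A gene was called lower or higher where its log2 ratio lay at least 0.32 from 0, which is a ratio of at most 0.8 on the lower side, and its interval excluded 1. Calls at 1.5-fold are given as such.

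Taken over the set, sterol and lipid synthesis transcripts were modestly lower in the ASO-1235 library. The 37 genes summed to 3230 CPM in the ASO-1235 library and 3767 CPM in the ASO-NC library, a ratio of 0.858, and FASN made up 31.8% and 32.8% of those sums. Without FASN the sums were 2204 and 2532 CPM, a ratio of 0.871. The ratio lay below 1 for 28 of the 37 genes, against 50.3% of the 14291 genes tested, which are those that reach 1 CPM in 1 library or both. The median log2 ratio of the 37 was −0.19, and that of all genes tested was −0.0025. Of the 37, 11 (29.7%) were called lower, against 8.85% of all genes tested, and 3 (8.11%) were called higher, against 11.9%. At 1.5-fold 2 were lower, against 2.03% of all genes, and 0 were higher, against 5.05%. The interval excluded 1 for 22 genes on the lower side and for 4 on the higher side, and it included 1 for 11. Among all genes tested it excluded 1 on the lower side for 23.2% and on the higher side for 22.7%.

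**Figure D1:**
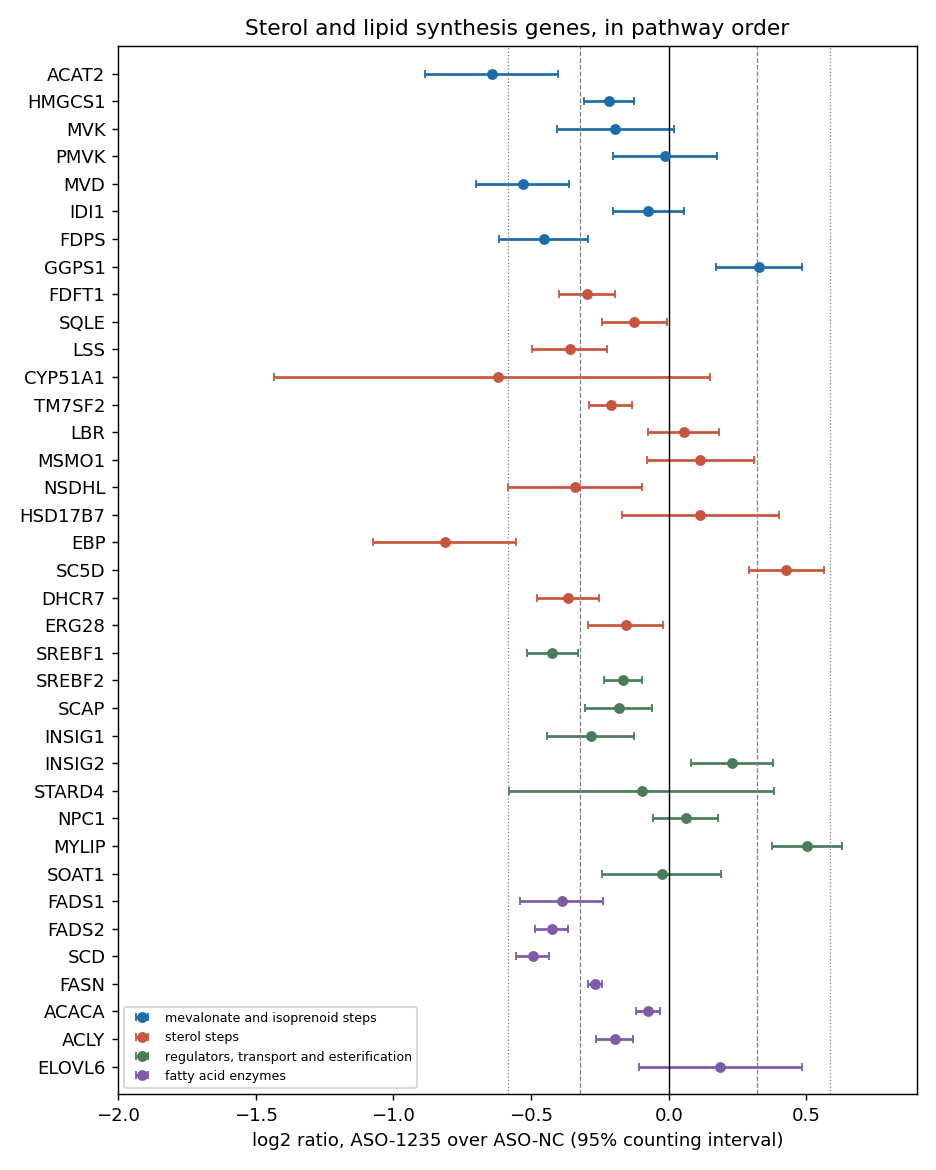
Log2 ratio of each gene, ASO-1235 over ASO-NC, in pathway order from top to bottom, with bars for the 95% counting interval and colours for the role. Dashed lines mark a log2 ratio of 0.32 in each direction and dotted lines 1.5-fold. EBP and ACAT2 lie beyond 1.5-fold on the lower side with intervals that exclude 1, and GGPS1, SC5D and MYLIP lie beyond the dashed line on the higher side.

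The ratio moved with the sequence of the transcripts in all genes, and the members have to be read against that. Of the 37 genes, 21 had a longest transcript with a GC content at or above 48.2%, the median of the genes tested. Of these 21, 20 had a ratio below 1, 10 were called lower and 0 higher, with a median log2 ratio of −0.30. Among all 6982 genes tested in that GC range, 70.2% had a ratio below 1, 15.3% were called lower and 5.08% higher, and the median was −0.13. The 16 members with less GC had a median of 0.01, with 8 below 1, where all 6981 genes tested in that range had a median of 0.13 and 30.7% below 1. All 3 members called higher were among these 16, where 18.4% of all genes tested were called higher, and 1 was called lower, against 2.51%. With the trend on GC content and transcript length taken off, the median of the 37 was −0.15 and that of all genes tested −0.02, and 31 of 37 lay below 1, against 53.0% of all genes. Of the 11 genes called lower, 5 remained called and HMGCS1 was added, and these 6 of 37 stand against 5.93% of all genes tested. The part of sequence composition in the ratio of any single gene was not tested.

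**Figure D2:**
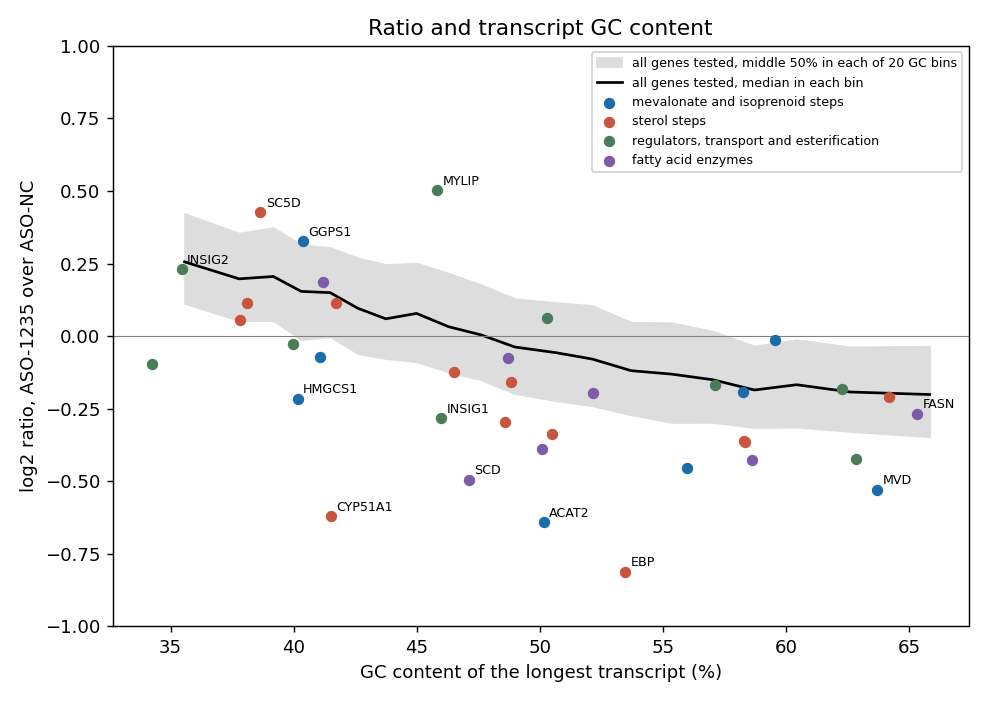
Log2 ratio, ASO-1235 over ASO-NC, on the vertical axis against the GC content of the longest transcript in percent, for the 37 genes (colours by role). The black line is the median and the grey band the middle 50% of all genes tested in 20 bins of GC content. EBP, ACAT2, CYP51A1, SCD and MVD are among the genes below the band, and MYLIP and SC5D are among those above it.

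Promoter sequence is shown for 4 genes between which the ratios span the pathway: SREBF2, the activator itself, INSIG1, the brake on that activator, EBP, the enzyme gene with the lowest ratio, and SC5D, the sterol enzyme gene with the highest. The sequences are RefSeq's on GRCh38.p14, plus strand, 5′ to 3′, and are the 250 bases before the annotated start. Capitals mark a sterol response element of the form TCACNCCAC and the CCAAT box, which reads ATTGG where it lies on the other strand. The windows are chr22:41832855-41833104 for SREBF2, chr7:155297628-155297877 for INSIG1, chrX:48521558-48521807 for EBP and chr11:121292521-121292770 for SC5D.
SREBF2: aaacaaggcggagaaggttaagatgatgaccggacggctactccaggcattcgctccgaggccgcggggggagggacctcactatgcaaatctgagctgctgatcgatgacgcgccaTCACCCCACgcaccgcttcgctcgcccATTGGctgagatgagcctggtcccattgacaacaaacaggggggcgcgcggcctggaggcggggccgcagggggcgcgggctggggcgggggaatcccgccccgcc
INSIG1: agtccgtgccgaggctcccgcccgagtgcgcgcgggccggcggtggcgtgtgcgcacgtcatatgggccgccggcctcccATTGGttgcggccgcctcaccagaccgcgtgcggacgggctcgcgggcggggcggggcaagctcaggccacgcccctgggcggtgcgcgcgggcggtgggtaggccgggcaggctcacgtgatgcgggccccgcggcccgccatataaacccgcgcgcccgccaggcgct
EBP: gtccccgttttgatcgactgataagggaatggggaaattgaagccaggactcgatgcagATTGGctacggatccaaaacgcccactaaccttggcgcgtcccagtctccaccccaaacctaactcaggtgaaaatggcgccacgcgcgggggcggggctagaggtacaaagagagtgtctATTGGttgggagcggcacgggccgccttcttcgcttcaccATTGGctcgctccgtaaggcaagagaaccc
SC5D: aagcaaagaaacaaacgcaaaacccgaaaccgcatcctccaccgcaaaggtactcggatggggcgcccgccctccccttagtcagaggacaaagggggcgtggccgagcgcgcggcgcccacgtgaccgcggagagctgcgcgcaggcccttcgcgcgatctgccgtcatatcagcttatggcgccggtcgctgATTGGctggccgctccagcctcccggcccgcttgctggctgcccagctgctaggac

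RefSeq promoters were at hand for 33 of the 37 genes, with 45 windows of 300 bases (250 before to 50 after a start), 3 genes having 3 windows and 6 having 2. FDFT1, SQLE, ACAT2 and FASN had none. Both strands were searched. The element TCACNCCAC occurred in 1 member window, that of SREBF2, and in 396 of all 35116 windows (1.13%). In SREBF2 it overlaps no match to the other motifs searched. Other forms of the sterol response element were not searched. CCAAT was present in 28 of 45 member windows (62.2%) and in 34.6% of all windows, and the GC box GGGCGG in 39 of 45 (86.7%) and in 45.0%. The E-box CACGTG was in 5 member windows (11.1%) and in 7.26% of all windows. The 35116 windows were not limited to genes at 1 CPM, unlike the other backgrounds given here. The 24 genes with CCAAT in a window had a median log2 ratio of −0.19, with 19 below 1 and 8 called lower, and the 9 without it a median of −0.01, with 5 below 1 and 2 called lower. Of all genes tested, 50.3% had a ratio below 1 and 8.85% were called lower. The 31 genes with a GC box had a median log2 ratio of −0.18 and the 2 without it −0.14. The 4 genes with an E-box had a median of −0.23 and the 29 without it −0.17. The genes with and without each motif were not matched for GC content, and the part of the motifs in the ratios was not tested.

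The enzymes of the mevalonate and isoprenoid steps gave 7 of 8 ratios below 1, with a median log2 ratio of −0.20. ACAT2, the cytosolic enzyme that joins acetyl-CoA units at the start, had 440 counts in the ASO-1235 library and 821 in the ASO-NC library, a ratio of 0.641 (0.542 to 0.757). It was the lowest of the 8, and 2.49% of all genes tested had a lower ratio. The gene lies on chromosome 6 from 159760328 to 159779055 (GRCh38, GENCODE 29), where 33.9% of its exon bases overlap SOD2-OT1, 26.5% overlap an annotated SOD2 gene and 9.23% overlap TCP1, all on the other strand. SOD2-OT1 had 5 counts in the ASO-1235 library and 10 in the ASO-NC library. TCP1 had 4906 and 5869 in the ASO-1235 and ASO-NC libraries, a ratio of 1.0, and that SOD2 gene ID was not analysed here.

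HMGCS1, the HMG-CoA synthase of the next step, had 3387 counts in the ASO-1235 library and 4703 in the ASO-NC library, a ratio of 0.861 (0.809 to 0.917). It was the most abundant of these enzymes per length, at 18.4 CPM per kilobase of merged exons in the ASO-1235 library and 21.4 in the ASO-NC library. The mevalonate kinase MVK had 639 and 874 counts in the ASO-1235 and ASO-NC libraries and the lowest level per length of the 8, and the phosphomevalonate kinase PMVK had 854 and 1031. Their intervals, 0.754 to 1.01 and 0.869 to 1.13, included 1. MVD, which decarboxylates mevalonate diphosphate, had 919 counts in the ASO-1235 library and 1586 in the ASO-NC library, a ratio of 0.693 (0.616 to 0.778). The intervals of PMVK and MVD did not overlap, whereas those of MVK and MVD did.

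IDI1, the isomerase of isopentenyl diphosphate, had 1781 counts in the ASO-1235 library and 2241 in the ASO-NC library, and its interval (0.869 to 1.04) included 1. FDPS, the farnesyl diphosphate synthase at the branch point of the pathway, had 1030 counts in the ASO-1235 library and 1687 in the ASO-NC library, a ratio of 0.730 (0.653 to 0.816), and the call was lost with the sequence trend taken off (log2 ratio −0.31). It shares 18.6% of its exon bases with the antisense gene RUSC1-AS1 (206 and 324 counts, a ratio of 0.760). Whether the counting used strand is not given, so reads of these neighbours cannot be told apart. GGPS1, which makes geranylgeranyl diphosphate for protein prenylation instead of sterol, went the other way, with 1352 counts in the ASO-1235 library and 1288 in the ASO-NC library, a ratio of 1.26 (1.13 to 1.40). With the sequence trend taken off, its log2 ratio was 0.18 and the call was lost. GGPS1 shares 37.3% of its exon bases with an annotated TBCE gene on the same strand, which had 130 counts in the ASO-1235 library and 159 in the ASO-NC library.

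The 13 genes of the sterol steps had a median log2 ratio of −0.21, with 9 below 1, 4 called lower and 1 called higher, where 8.85% and 11.9% of all genes tested were called. With the sequence trend taken off 12 of the 13 lay below 1, EBP alone was called lower, and the calls of LSS, NSDHL, DHCR7 and SC5D were lost. FDFT1, the squalene synthase that commits farnesyl diphosphate to sterol, had 2656 counts in the ASO-1235 library and 3902 in the ASO-NC library, a ratio of 0.814 (0.759 to 0.873). SQLE, the squalene epoxidase and a rate-limiting enzyme, had 2049 and 2672 counts in the ASO-1235 and ASO-NC libraries, a ratio of 0.917 (0.844 to 0.995). LSS, which closes the ring to lanosterol, had 1454 counts in the ASO-1235 library and 2232 in the ASO-NC library, a ratio of 0.779 (0.709 to 0.856). All 3 intervals lay below 1. LSS was called lower, but not with total counts as the scaling, and with the trend taken off its log2 ratio was −0.23, against −0.28 for FDFT1.

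CYP51A1, the lanosterol demethylase, was the weakest member, at 45 counts in the ASO-1235 library and 83 in the ASO-NC library, and its interval was wide (0.370 to 1.11). Its level of 0.322 CPM per kilobase in the ASO-1235 library and 0.496 in the ASO-NC library lay below those of all other members. GENCODE 29 places a second protein-coding gene, AC000120.2, on the same strand over 79.4% of its exon bases, and that gene had 0 counts in both libraries. Reads that fit more than 1 gene are dropped by many counting settings. The part of that in the level of CYP51A1 was not tested.

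Both sterol C14 reductases were well expressed. TM7SF2 had 4702 counts in the ASO-1235 library and 6509 in the ASO-NC library, a ratio of 0.864 (0.819 to 0.911). LBR, which is also the lamin B receptor of the nuclear envelope, had 1831 and 2108 counts in the ASO-1235 and ASO-NC libraries, a ratio of 1.04 (0.950 to 1.14). Per length, TM7SF2 stood at 3.96 times the level of LBR in the ASO-1235 library and at 4.76 times in the ASO-NC library, and it was the most abundant of the 13 at 35.3 and 40.9 CPM per kilobase. With the sequence trend taken off, the order of their ratios was the opposite, with log2 ratios of −0.01 for TM7SF2 and −0.15 for LBR.

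The demethylation at C4 needs MSMO1, NSDHL and HSD17B7, which ERG28 tethers into a complex, a role best known from yeast. MSMO1, the oxidase, had 835 counts in the ASO-1235 library and 922 in the ASO-NC library (0.946 to 1.24), and HSD17B7, the ketoreductase, had 394 and 435 (0.889 to 1.32). NSDHL, the decarboxylating dehydrogenase, had 468 counts in the ASO-1235 library and 708 in the ASO-NC library, a ratio of 0.790 (0.667 to 0.935). ERG28 had 1550 and 2066 counts in the ASO-1235 and ASO-NC libraries, a ratio of 0.897 (0.816 to 0.986). The intervals of NSDHL and ERG28 lay below 1 and those of MSMO1 and HSD17B7 included 1, but the interval of ERG28 overlapped both of these, and that of NSDHL overlapped that of HSD17B7. With the trend taken off all 4 log2 ratios lay below 0, from −0.27 for NSDHL to −0.01 for HSD17B7. Pseudogenes named after FDPS, IDI1, CYP51A1, HSD17B7 and SCD had at most 4 counts per parent gene in a library, but reads of near-identical copies can be lost or split, so the counts of these 5 parents are uncertain.

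EBP, the isomerase that moves the ring double bond, had the lowest ratio of the set. It had 365 counts in the ASO-1235 library and 767 in the ASO-NC library, or 9.35 and 16.4 CPM, a ratio of 0.569 (0.474 to 0.680), and 1.29% of all genes tested had a lower one. The gene (ENSG00000147155.11) lies on chromosome X from 48521158 to 48528716, and no annotated gene shares its exons. With the sequence trend taken off its log2 ratio was −0.69, still past 1.5-fold. SC5D, the desaturase that acts next, was at the other end of the sterol enzymes, with 1888 counts in the ASO-1235 library and 1679 in the ASO-NC library, a ratio of 1.34 (1.22 to 1.48). Its log2 ratio with the trend taken off was 0.25, and the call was lost. DHCR7, the reductase that ends one branch of the pathway in cholesterol, had 2144 counts in the ASO-1235 library and 3302 in the ASO-NC library, a ratio of 0.776 (0.718 to 0.839). With the trend taken off its log2 ratio was −0.20 and its call was lost too.

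**Figure D3:**
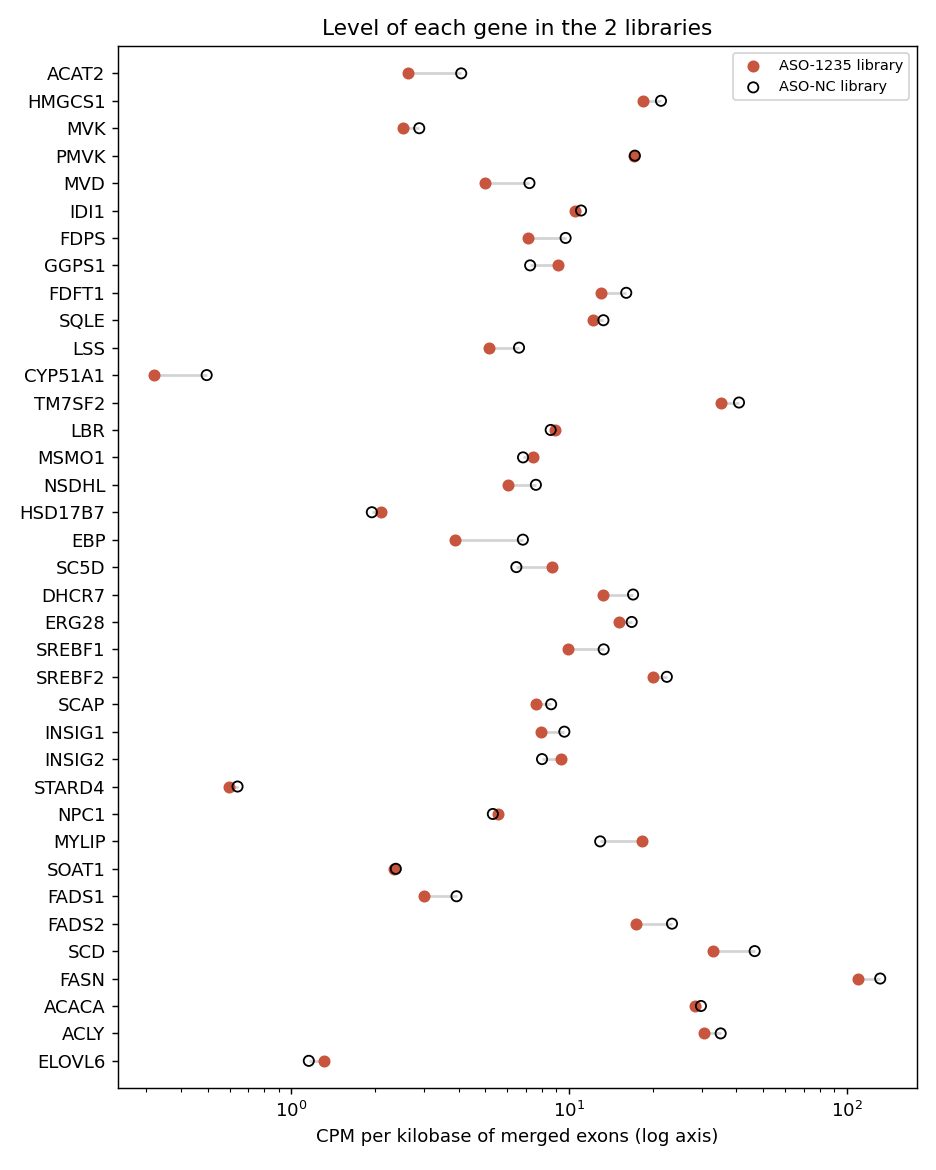
Level of each of the 37 genes in CPM per kilobase of merged exons, on a log axis, in the ASO-1235 library (filled) and the ASO-NC library (open), in pathway order. FASN is the highest at 110 and 132 CPM per kilobase and CYP51A1 the lowest at 0.322 and 0.496. The distance between the circles is small beside the range of levels among genes.

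The regulators, carriers and the esterifying enzyme had a median log2 ratio of −0.10, with 6 of 9 below 1. SREBF1 had 3116 counts in the ASO-1235 library and 4995 in the ASO-NC library, a ratio of 0.746 (0.700 to 0.795). SREBF2, with the only match to TCACNCCAC among the member windows, had 5909 and 7936 counts in the ASO-1235 and ASO-NC libraries, a ratio of 0.890 (0.849 to 0.934). The intervals of these 2 factors did not overlap. With the trend taken off their log2 ratios were −0.26 and −0.06, and the lower call of SREBF1 was lost. SREBF1 stood at 0.496 times the level of SREBF2 per length in the ASO-1235 library and at 0.592 times in the ASO-NC library. SCAP had 1909 counts in the ASO-1235 library and 2589 in the ASO-NC library, a ratio of 0.882 (0.810 to 0.959).

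The INSIG genes differed in direction. INSIG1, itself an SREBP target, had 1126 counts in the ASO-1235 library and 1639 in the ASO-NC library, a ratio of 0.821 (0.737 to 0.916). INSIG2 had 1446 and 1474 counts in the ASO-1235 and ASO-NC libraries, a ratio of 1.17 (1.06 to 1.30). Per length, INSIG1 was at 0.843 times the level of INSIG2 in the ASO-1235 library and at 1.20 times in the ASO-NC library, so the order of the pair was reversed between the libraries. With the trend taken off, INSIG1 had a log2 ratio of −0.32 and INSIG2 one of −0.01. INSIG2 has 35.4% GC in its longest transcript and INSIG1 46.0%.

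MYLIP, also called IDOL, a ubiquitin ligase that removes lipoprotein receptors and is induced by the liver X receptors, had the highest ratio of the 37. It had 2171 counts in the ASO-1235 library and 1833 in the ASO-NC library, a ratio of 1.42 (1.30 to 1.55), and its log2 ratio with the trend taken off was 0.46, and the call was kept. The gene lies on chromosome 6 from 16129125 to 16148248. NPC1, which exports cholesterol from lysosomes, had 2189 counts in the ASO-1235 library and 2508 in the ASO-NC library, and SOAT1, which esterifies cholesterol for storage, had 639 and 778. Their intervals included 1 (0.962 to 1.13 and 0.844 to 1.14). STARD4, a soluble sterol carrier, had 133 and 170 counts in the ASO-1235 and ASO-NC libraries, too few to place the ratio more closely than 0.668 to 1.30.

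Fatty acid enzymes were lower in the ASO-1235 library in 6 of 7 cases, all 6 with intervals below 1, with a median log2 ratio of −0.27. With the trend taken off the median was −0.15, against −0.26 for the mevalonate steps. Of all genes tested, 50.3% had a ratio below 1 and 23.2% an interval below 1. Intervals were narrower in this role, with a median half-width of 0.061 on the log2 scale, against 0.164 for the mevalonate steps. SCD, the desaturase that makes oleate, had 6920 counts in the ASO-1235 library and 11660 in the ASO-NC library, a ratio of 0.710 (0.680 to 0.740). With the trend taken off its log2 ratio was −0.54. FADS1 and FADS2, the desaturases of long polyunsaturated fatty acids, sit side by side on chromosome 11 and share 490 exon bases on opposite strands. FADS2 had 7525 counts in the ASO-1235 library and 12084 in the ASO-NC library, a ratio of 0.745 (0.715 to 0.776). FADS1 had 1200 and 1879 counts in the ASO-1235 and ASO-NC libraries, a ratio of 0.764 (0.688 to 0.847). These 3 desaturase genes were the members of this role called lower. SCD kept the call under each alternative, FADS2 lost it with the trend taken off, and FADS1 lost it with total counts as the scaling.

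FASN, the fatty acid synthase, had 40068 counts in the ASO-1235 library and 57647 in the ASO-NC library, or 1026 and 1235 CPM, a ratio of 0.831 (0.816 to 0.846). ACLY, which supplies cytosolic acetyl-CoA from citrate, had 6250 and 8559 counts in the ASO-1235 and ASO-NC libraries, a ratio of 0.873 (0.834 to 0.915). ACACA, the acetyl-CoA carboxylase, had 14388 counts in the ASO-1235 library and 18124 in the ASO-NC library, a ratio of 0.949 (0.920 to 0.979) that lay at a log2 ratio of 0.01 when libraries were scaled by their total counts. ELOVL6, which lengthens the products of FASN, had 375 and 394 counts in the ASO-1235 and ASO-NC libraries, and its interval (0.927 to 1.40) included 1. FASN, ACACA and ACLY are among the most deeply counted genes of the set, and their narrow intervals come from that depth and hold nothing of the spread between cultures.

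**Figure D4:**
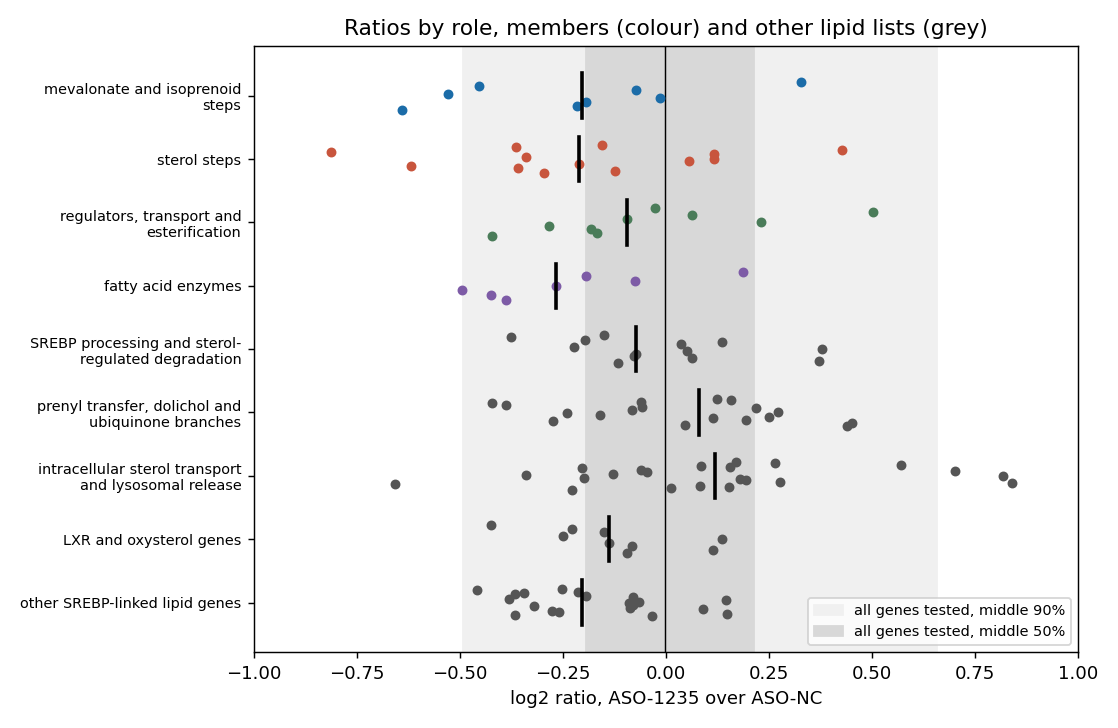
Log2 ratio, ASO-1235 over ASO-NC, of each gene at 1 CPM or more, by role for the 37 members (colours) and for 5 further lists of sterol and lipid genes (grey points), with a black bar at each median. The shaded bands hold the middle 90% (−0.49 to 0.66) and the middle 50% (−0.20 to 0.21) of all genes tested. The medians run from −0.27 for the fatty acid enzymes to 0.12 for intracellular sterol transport, an order that changes with the sequence trend taken off (mevalonate steps −0.26, fatty acid enzymes −0.15, sterol transport −0.01, liver X receptor and oxysterol genes 0.02).

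Other genes of sterol and lipid handling were taken from 5 further lists, whose calls are to be read against the 8.85% lower and 11.9% higher of all genes tested. The list of 22 further SREBP-linked lipid genes, 20 of them at 1 CPM, had 17 below 1, 4 called lower, 0 called higher and a median log2 ratio of −0.20. The 13 genes of SREBP cleavage and sterol-regulated degradation had a median of −0.07, with 1 called lower and 1 called higher. The higher one was MBTPS2, the site 2 protease of SREBP, with 3852 counts in the ASO-1235 library and 3563 in the ASO-NC library, a ratio of 1.29 (1.21 to 1.38). Its log2 ratio with the sequence trend taken off was 0.12. MBTPS1, the site 1 protease, had 5549 and 7194 counts in the ASO-1235 and ASO-NC libraries, a ratio of 0.922 (0.877 to 0.969). These protease genes, MBTPS1 and MBTPS2, were named after their values were seen.

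The 18 genes of prenyl transfer, dolichol and ubiquinone had a median log2 ratio of 0.08, with 2 called lower and 2 called higher. The 22 genes of intracellular sterol transport had a median of 0.12, with 14 above 1, 2 called lower and 4 called higher. With the sequence trend taken off the medians were −0.03 for the prenyl transfer list and −0.01 for the sterol transport list. Past 1.5-fold in that list were GRAMD1C, a sterol carrier at membrane contact sites, with 551 counts in the ASO-1235 library and 405 in the ASO-NC library (1.63, 1.35 to 1.96), OSBPL6 with 117 and 78 (1.79, 1.18 to 2.76), and STARD5 with 133 and 90 (1.77, 1.19 to 2.64). OSBPL5, of the oxysterol-binding protein family, was lower, with 373 counts in the ASO-1235 library and 704 in the ASO-NC library (0.634, 0.528 to 0.759). These 3 higher and 1 lower of 22 stand against 5.05% and 2.03% of all genes tested at 1.5-fold. With the sequence trend taken off, the log2 ratios were 0.53 for GRAMD1C, 0.59 for OSBPL6, 0.82 for STARD5 and −0.49 for OSBPL5. GRAMD1C and OSBPL5 were then no longer past 1.5-fold. The interval of OSBPL6, moved by the same trend, then included 1, so its call was lost too. Of the 12 genes linked to the liver X receptors and oxysterols, 9 reached 1 CPM, 7 of these had a ratio below 1, and 0 were called in either direction. Their median log2 ratio was −0.14, and 0.02 with the sequence trend taken off.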

How the data were processed

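The authors deposited raw counts for both libraries: whole numbers with unequal totals. Per the submitters' processing notes, STAR 2.7.11a, featureCounts 2.0.6 and hg38 were involved; the annotation release, the strand setting and how mates were counted were not given in the sources used here. Of the rows, 3 had no gene count and were left out; 58206 of 62699 IDs were in GENCODE 29, the source of lengths and coordinates.

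Libraries were scaled with TMM (edgeR 4.0.16, R 4.3.3) on genes at 1 CPM or more, with factors of 1.03 for ASO-1235 and 0.971 for ASO-NC. Clopper-Pearson intervals at 95% on halved counts and calls at a log2 ratio of 0.32 and at 1.5-fold followed, in Python 3.11.15 with scipy 1.17.1; medians used log2 ratios with a prior count of 0.5. The calculation was tested on simulated counts that were all even and held counting error only. The deposited counts were not all even, so that test cannot show how the intervals hold for them. The trend on GC content and length was a robust spline regression (statsmodels 0.14.6, 5 degrees of freedom each). Members and lists were chosen with earlier results of these data known. 1 planned marker gene is not reported here. All 37 members are named, with other list genes past 1.5-fold. LYZ, PLIN1, PLIN4, COL1A1, VWF, MBTPS1 and MBTPS2 were named after their values were seen. DESeq2 1.42.0 size factors were an alternative.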

Additional observations from a re-analysis of the deposited data

How the results depend on the processing

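Scaling by total counts raised the median log2 ratio of all genes tested to 0.09. Under it 7 members were called lower, against 4.56% of all genes tested, and 3 were called higher, against 17.7%. DHCR7, FADS1, LSS and NSDHL lost the lower call, as did ACAT2 at 1.5-fold. At 1.5-fold 1 member was lower (EBP), against 180 of the 14352 genes tested under this scaling. Higher at 1.5-fold was 1 member (MYLIP), against 7.19% of all genes tested. A ratio below 1 was found for 24 of 37, against 38.6% of all genes tested, and the median of the 37 was −0.11. With the trend on GC content and length removed, 6 members were called lower and 1 higher, against 5.93% and 8.25% of all genes, and the calls of DHCR7, FADS2, FDPS, LSS, NSDHL, SREBF1, GGPS1 and SC5D were lost; the cause was not tested. The medians of the 37 genes and of the 4 roles stayed below 0 under all 9 alternatives, from −0.20 to −0.11 for the 37. Intervals on the counts as deposited added CYP51A1 to the lower calls, also at 1.5-fold. That gave 12 members called lower and 3 lower at 1.5-fold, against 11% and 3.03% of all genes tested. DESeq2 size factors, upper quartile scaling, totals without mitochondrially encoded genes, a prior count of 5 and other minimum levels changed none of the calls. No paired analysis was possible because each group has 1 library. Depth limits CYP51A1 and STARD4 most. No set of replicates exists, so differences between cultures cannot be told apart from differences between ASO-1235 and ASO-NC.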
